A study of Mus musculus with 4 samples.

Results

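Integrin and laminin subunit genes were examined in 4 mouse oral cancer lines. The 31 genes, listed by name and matched to the expression table by Ensembl identifier in GENCODE M21, comprised 13 integrin alpha subunits, 8 integrin beta subunits and 5 alpha, 3 beta and 2 gamma chains of laminin. They are 31 of 34721 entries in the table, and each had exactly 1 entry. Of these, 18 reached 1 FPKM (fragments divided by transcript length and by library size, on a fixed scale) in at least 1 line, and 13 stayed below 1 FPKM in every line. The same filter kept 14165 entries of the whole table.

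The lines came from tumors that arose in C57BL/6 mice after the carcinogen DMBA was applied to the buccal mucosa. AOC3 was derived from the oral tumor of one mouse and AOC3-LN from its lymph node metastasis, and AOC11 and AOC11-LN were the corresponding lines of a second mouse. The cells were passed through a subcutaneous tumor in C57BL/6 mice, depleted of fibroblasts with an isolation kit and grown untreated in DMEM/F12 medium with serum. RNA of each line was sequenced as 1 library, so that a lymph node line could be compared with its primary line without any replicate, and comparisons between the mice used the spread between both lines of a mouse. Where 4 values follow each other below, they belong to AOC3, AOC3-LN, AOC11 and AOC11-LN in that order. The estimated depths were 33700000, 28300000, 33900000 and 32400000 fragments.

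Integrins are cell surface receptors made of 1 alpha and 1 beta subunit, and the pairing decides which matrix protein is bound. Laminins are cross-shaped trimers of an alpha, a beta and a gamma chain, and they form the sheet of the basement membrane on which epithelial cells sit. In stratified epithelia such as the oral mucosa, the integrin pair of Itga6 and Itgb4 anchors basal cells in hemidesmosomes to the laminin that holds the Lama3 and Lamb3 chains, while the pair of Itga3 and Itgb1 binds the same laminin outside hemidesmosomes.

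The label of oral cancer cells was compared with cell type markers. Summed FPKM of 8 epithelial markers was 3508.1, 3547.7, 2793.1 and 3106.6, and the most abundant was Krt18. All 8 passed the filter. Within this list, the basal keratin Krt5 stood at 498.9 and 274.7 FPKM in AOC3 and AOC3-LN and at 4.99 and 17.03 FPKM in AOC11 and AOC11-LN. Krt14, the other basal keratin, went the opposite way, with 166.1, 150.3, 257.4 and 258.9 FPKM. None of 9 fibroblast markers passed, and their sum did not exceed 1.23 FPKM in any line. The sum of 6 endothelial markers stayed at or below 0.401 FPKM. Of 11 leukocyte markers, Cd68 and Csf1r passed. The leukocyte list summed to 14.7, 10.05, 27.4 and 11.3 FPKM, whereas Ptprc, which encodes the surface protein CD45 of all leukocytes, did not exceed 0.064 FPKM, and Cd3e and Adgre1 were listed at 0 in all 4 lines. In such bulk RNA, a smaller number of cells of a type and less RNA per cell cannot be told apart.

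**Figure D1:**
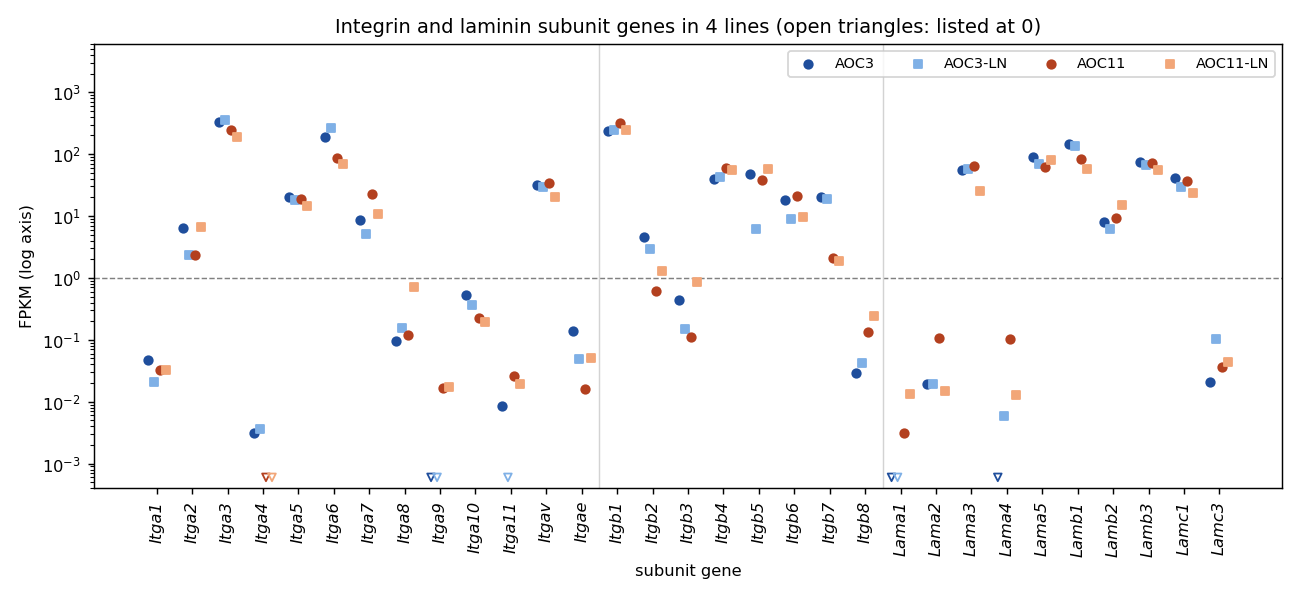
FPKM of each of the 31 integrin and laminin subunit genes (log axis) in AOC3, AOC3-LN, AOC11 and AOC11-LN, 1 point per line, with open triangles for genes listed at 0 and a dashed line at 1 FPKM. Itga3, Itga6 and Itgb1 stand highest among the integrins, and 13 genes lie below the dashed line in every line.

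Most of the integrin FPKM in all 4 lines came from 4 subunits that form laminin receptors, when Itgb1 was counted among them. Itga3, Itga6, Itgb1 and Itgb4 together made up 83.4%, 90.8%, 83.2% and 81.8% of the summed integrin FPKM. Itgb1, which other receptors share, alone made up 25.1%, 24.7%, 37.4% and 36.2%. Itgb4 had a smaller share than Itgb5, a vitronectin receptor subunit, in AOC3 (4.19% against 4.99%) and in AOC11-LN (7.97% against 8.42%). Itga3, which pairs with Itgb1, was at 326.5, 358.9, 240.7 and 189.1 FPKM, so that both AOC3 lines lay above both AOC11 lines. Itgb1, the common beta partner of many alpha subunits, was at 239.0, 247.5, 314.9 and 248.8 FPKM. Its highest value exceeded its lowest by 1.32-fold, the narrowest span among the 18 subunit genes that passed the filter. The ratio of Itga3 to Itgb1 FPKM was accordingly 1.37 and 1.45 in AOC3 and AOC3-LN against 0.765 and 0.76 in AOC11 and AOC11-LN.

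Itga6, the alpha subunit of the hemidesmosome, was at 187.6, 259.7, 86.3 and 68.97 FPKM. The AOC3 lines did not overlap with the AOC11 lines. Itgb4, its hemidesmosomal beta partner, had 39.9, 42.97, 59.1 and 54.7 FPKM in the same order of lines, and here both AOC11 lines were the higher ones. The Itga6 level was therefore 4.71 and 6.04 times that of Itgb4 in the AOC3 lines and 1.46 and 1.26 times in the AOC11 lines. Itga6 also pairs with Itgb1, and RNA levels do not tell how the protein was shared between both partners.

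Among the receptors for other matrix proteins, Itga5, the fibronectin receptor subunit, ranged from 14.3 FPKM in AOC11-LN to 20.3 FPKM in AOC3. Itgav, which pairs with several beta subunits to bind fibronectin, vitronectin and latent TGF-beta, ranged from 20.0 FPKM in AOC11-LN to 34.2 FPKM in AOC11. Itga2, the alpha subunit of a collagen and laminin receptor, was at 6.48, 2.32, 2.38 and 6.67 FPKM. The primary line was the higher one in the first mouse and the lymph node line in the second. Itga7, a laminin receptor subunit best known from muscle, was at 8.54, 5.10, 22.6 and 10.9 FPKM, with AOC11 highest and both AOC3 lines below both AOC11 lines. No muscle marker of the 3 measured reached 1 FPKM. Itga7 overlaps Mettl7b on the opposite strand. The authors used a stranded kit and state default parameters for TopHat2 and Cufflinks, without naming a strand setting.

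The beta partners of Itgav differed in their pattern. Itgb5, a vitronectin receptor subunit, was at 47.4, 6.14, 38.6 and 57.8 FPKM, and AOC3-LN stood apart from the other 3 lines. Itgb6, an epithelial subunit that activates latent TGF-beta, was at 17.96 and 21.4 FPKM in the primary lines AOC3 and AOC11 and at 8.93 and 9.67 FPKM in AOC3-LN and AOC11-LN. Both lymph node lines were below both primary lines. Itgb3 and Itgb8, further partners of Itgav, reached at most 0.856 and 0.244 FPKM, both in AOC11-LN. The Itgb5 level relative to Itgb6 was 2.64, 0.687, 1.80 and 5.98.

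A pair of beta subunits that are characteristic of leukocytes was also detected. Itgb7 was at 20.01, 18.9, 2.08 and 1.88 FPKM, and Itgb2 at 4.57, 2.89, 0.615 and 1.29 FPKM. For both genes the AOC3 lines lay above the AOC11 lines. The alpha partners of these subunits were near 0. Itga4 and Itgae, the partners of Itgb7, did not exceed 0.00367 and 0.138 FPKM. Of the partners of Itgb2, Itgad was listed at 0 in all lines, and Itgal, Itgam and Itgax did not exceed 0.00848, 0.0135 and 0.0382 FPKM. Of the leukocyte markers that passed the filter, Cd68 was at 12.97, 8.79, 6.15 and 4.45 FPKM, with the AOC3 lines above the AOC11 lines as for Itgb2 and Itgb7. Csf1r was at 0.995, 0.435, 20.8 and 6.01 FPKM, with the AOC11 lines above. The part of leukocyte RNA in the levels of Itgb2 and Itgb7 was not tested. Itga2b, the platelet integrin alpha subunit, which was not among the 31 genes, was at 1.02, 0.979, 2.36 and 4.61 FPKM, while Itgb3, its only beta partner, stayed below 1 FPKM and Gp9, another platelet gene, was listed at 0.

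The remaining integrin subunits were low. Itga1, Itga4, Itga9 and Itga11 did not exceed 0.0479 FPKM. Itga1, which lies 21 kb from Itga2 on chromosome 13, did not share the level of its neighbor. Itga8 reached 0.708 FPKM in AOC11-LN against at most 0.156 FPKM in the other lines, and Itga10 was highest in AOC3 with 0.527 FPKM. On a transcript of 4000 bases, 3 fragments correspond to between 0.0232 and 0.0276 FPKM in these libraries, and the values of Itga4, Itga9, Itga11 and Lama1 rest on an estimated 4 fragments at most.

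**Figure D2:**
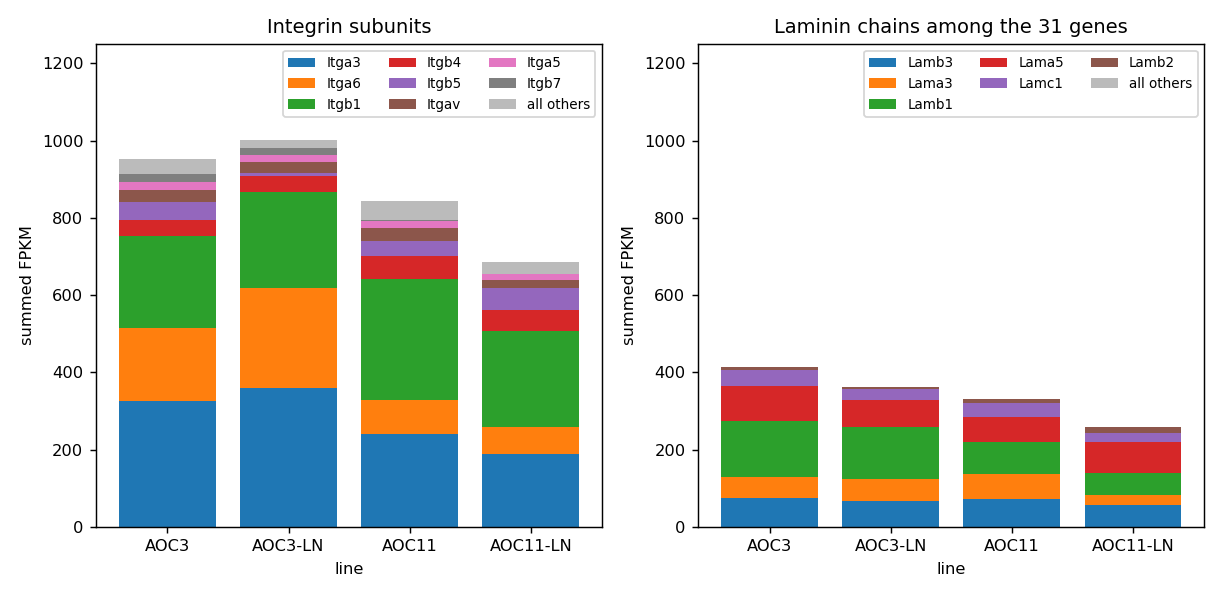
Summed FPKM of the integrin subunits (left) and of the laminin chains among the 31 genes (right) in each line, stacked by gene. Itga3, Itga6, Itgb1 and Itgb4 together fill between 81.8% and 90.8% of the integrin column. Lamb1 is the largest laminin block in AOC3, AOC3-LN and AOC11 and Lama5 in AOC11-LN.

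Among the laminin chains, Lama3 and Lamb3 belong to the epithelial laminin named above. Lama3, its alpha chain, was at 55.2, 56.6, 63.4 and 25.8 FPKM, the last line standing below the others. Lamb3, its beta chain, was more even, from 55.5 FPKM in AOC11-LN to 74.3 FPKM in AOC3. Lamb3 overlaps G0s2 and Hsd11b1 on the opposite strand. The ratio of Lamb3 to Lama3 FPKM was 1.35, 1.18, 1.14 and 2.16, highest in AOC11-LN. Together they made up 31.2%, 33.99%, 41.1% and 31.3% of the summed FPKM of the laminin chains among the 31 genes, and this sum was 414.8, 362.9, 330.4 and 259.3 FPKM.

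Lama5, Lamb1, Lamb2 and Lamc1 form the broadly distributed laminins. Lama5, the alpha chain of the laminins of most adult basement membranes, was at 91.1, 69.4, 62.8 and 80.7 FPKM. Its ratio to Lama3 was highest in AOC11-LN with 3.13 and lay between 0.991 and 1.65 in the other lines. Lamb1 was at 144.9, 135.0, 84.7 and 58.4 FPKM, higher in both AOC3 lines. Lamb2, the alternative beta chain, showed the opposite order with 8.09, 6.17, 9.41 and 15.2 FPKM. The ratio of Lamb1 to Lamb2 thus ran from 3.84 in AOC11-LN to 21.9 in AOC3-LN. Lamc1, the gamma chain these laminins share, was at 41.2, 28.9, 37.3 and 23.6 FPKM, lower in each lymph node line than in its primary line. Lama1, Lama2, Lama4 and Lamc3, which belong largely to embryonic, muscle, vascular and neural basement membranes, did not exceed 0.106 FPKM.

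To ask how the lines of the mice differ, the mean of both AOC3 lines was compared with that of both AOC11 lines on quantile-normalized log2(FPKM + 1) values, a scale that understates differences of low genes. Of the 18 subunit genes tested, 6 differed by more than 1 log2 unit. Across all 14165 genes, 11.1% did so. Itgb7, Itga6, Itgb2 and Lamb1 were higher in the AOC3 lines (background 5.1%), and Itga7 and Itgb5 were lower (background 6.0%). The median difference was 0.24 over the 18 genes and 0.01 over all genes. In 9 of the 18 genes (50.0%) the lines of one mouse did not overlap with those of the other, against 53.1% of all genes. Itga3, Itga5, Itga6, Itgb2, Itgb7 and Lamb1 were the 6 with both AOC3 lines above (background 26.3%), and Itga7, Itgb4 and Lamb2 the 3 with both below (background 26.8%). Itga5 was at 4.29 in AOC3-LN against 4.27 in AOC11 on the normalized log2 scale, but at 17.8 against 18.95 FPKM, so that its deposited values overlapped. On deposited FPKM, Itgb1 (both AOC3 lines below) stood in place of Itga5 among the genes without overlap. The share of all genes on that scale is not given here.

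**Figure D3:**
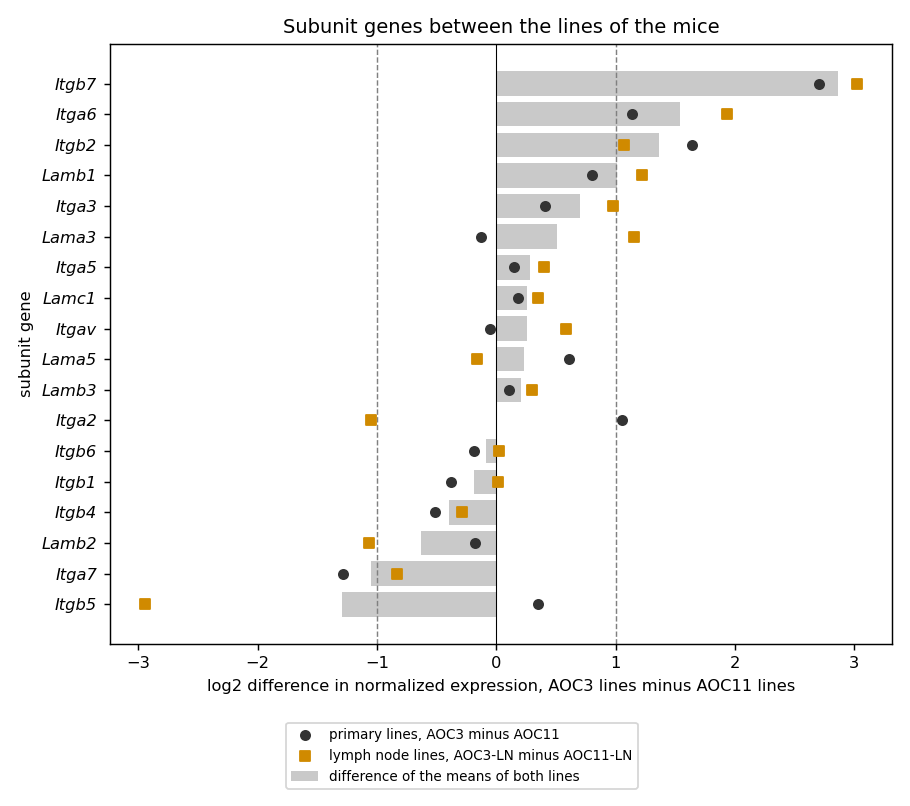
Log2 difference of AOC3 lines minus AOC11 lines for the 18 tested subunit genes, with grey bars for the means of both lines, circles for the primary lines and squares for the lymph node lines, and dashed lines at 1 and -1. Itgb7 is at 2.70 and 3.02, whereas Itgb5 is 0.35 between the primary lines and -2.94 between the lymph node lines.

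Itgb7 had the largest difference of the 18 genes, 2.86 on the log2 scale (SE 0.24). Between the primary lines it was 2.70 and between the lymph node lines 3.02. It was the only subunit gene called by limma with Benjamini-Hochberg adjustment over all genes (adjusted p = 0.0401), which called 29 genes in all (0.205%). The call was lost when the site was added as a term (limma adjusted p = 0.0601) and when any line was left out, where the limma adjusted p ranged from 0.143 to 0.391. It was also lost without a filter on low values (limma adjusted p = 0.254). The log2 difference itself stayed between 2.72 and 2.98 without any line. As both lines of a mouse took the place of replicates, the test describes these lines and not mice.

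Itga6 followed with 1.54 log2 units (SE 0.23, limma adjusted p = 0.0943), 1.14 between the primary and 1.93 between the lymph node lines. Itgb2 differed by 1.36 (SE 0.28, limma adjusted p = 0.127). Lamb1 lay just past the threshold with 1.01 (SE 0.23, limma adjusted p = 0.142) and Itga3 below it with 0.70 (SE 0.20). In the other direction, Itga7 differed by -1.05 (SE 0.40, limma adjusted p = 0.263). These values did not pass the test, and those of Lamb1 and Itga7 crossed the fold threshold depending on which line was included. Itga7 was at -0.56 without AOC11 and -0.78 without AOC3-LN, and Lamb1 at 0.75 without AOC11-LN and 0.94 without AOC3. Without quantile normalization Lamb1 was at 0.98. The basal keratin Krt5 was also higher in the AOC3 lines, by 5.19 (SE 0.59, limma adjusted p = 0.0685), whereas Krt14 differed by -0.69 (SE 0.16, limma adjusted p = 0.146), and the part of basal keratin expression in these differences was not tested.

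The mean difference of -1.29 for Itgb5 (SE 0.89, limma adjusted p = 0.477) rested on AOC3-LN. The lines of the mice overlapped, and without AOC3-LN the difference was 0.06. Itga2 had a mean difference of 0.00 that combined 1.05 between the primary lines with -1.05 between the lymph node lines. At an unadjusted limma p under 0.05 stood 6 of the 18 genes, against 18.7% of all genes.

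To show what lies before the start of the genes with the widest and the narrowest differences, the 250 bases upstream of the RefSeq start are given for Itgb7, which differed most between the mice, for Itgb5, which differed most between a lymph node line and its primary line, and for Itgb1, which varied least. The sequences are from GRCm38.p6, read 5′ to 3′ on the strand of the gene, with each CG dinucleotide in capitals. They lie at chr15:102231936-102232185 on the minus strand, chr16:33829415-33829664 on the plus strand and chr8:128685404-128685653 on the plus strand, respectively.
Itgb7: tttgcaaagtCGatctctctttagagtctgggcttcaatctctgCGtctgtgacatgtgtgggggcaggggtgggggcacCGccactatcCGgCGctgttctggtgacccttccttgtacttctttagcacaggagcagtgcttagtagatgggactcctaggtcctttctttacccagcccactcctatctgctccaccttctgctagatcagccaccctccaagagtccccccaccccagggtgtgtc
Itgb5: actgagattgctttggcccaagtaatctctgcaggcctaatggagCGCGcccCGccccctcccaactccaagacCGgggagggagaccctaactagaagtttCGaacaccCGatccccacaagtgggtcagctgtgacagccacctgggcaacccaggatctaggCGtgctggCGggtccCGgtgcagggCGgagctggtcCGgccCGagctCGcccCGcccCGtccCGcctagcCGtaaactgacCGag
Itgb1: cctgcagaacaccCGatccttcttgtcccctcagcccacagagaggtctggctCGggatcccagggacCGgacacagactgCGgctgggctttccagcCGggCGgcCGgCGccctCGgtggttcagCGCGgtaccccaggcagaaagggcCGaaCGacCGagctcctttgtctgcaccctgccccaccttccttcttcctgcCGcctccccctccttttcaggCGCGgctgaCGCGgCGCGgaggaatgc
The Itgb7 stretch held 5 CG dinucleotides, the Itgb5 stretch 18 and the Itgb1 stretch 21. The median over 32851 promoter entries was 6, and 92.1% of them held at least 1, so that the Itgb7 stretch had more than 44.4% of them, the Itgb5 stretch more than 78.3% and the Itgb1 stretch more than 83.7%. These counts describe the letters of the reference, and methylation was not analysed here. Of the 31 genes, 20 had a promoter entry.

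The lymph node line of each mouse was then compared with its primary line. These are differences between single libraries, without a p-value. In the first mouse, 2 of 18 subunit genes differed by more than 1 log2 unit (background 5.53%). Both were lower in AOC3-LN (background 3.42%), and none was higher (background 2.11%). These were Itgb5 with -2.72 and Itga2 with -1.03. The Itgb5 level in AOC3 was 7.73 times that in AOC3-LN, with an approximate 95% interval of 7.07 to 8.45 that covers counting error only. The median difference of the 18 genes was -0.16, and that of all genes 0.02. Below 0 were 13 of the 18, against 46.1% of all genes. Itga6 was the subunit gene with the largest difference upward, 0.46.

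In the second mouse, 3 of 18 subunit genes differed by more than 1 log2 unit between AOC11-LN and AOC11 (background 8.11%). AOC11-LN exceeded AOC11 by 1.07 in Itga2 (background 4.97%), and Lama3 and Itgb6 were at -1.26 and -1.07 (background 3.14%). The Lama3 level in AOC11 was 2.46 times that in AOC11-LN, with a counting interval of 2.40 to 2.52. Itga7 stopped short of the threshold with -0.98, and passed it with a pseudocount of 0.1, at -1.04. The median difference was -0.36 over the 18 genes and -0.02 over all genes, and 13 of the 18 were again below 0, against 51.3% of all genes. Lamb2 and Itgb5 were higher in AOC11-LN by 0.64 and 0.57.

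**Figure D4:**
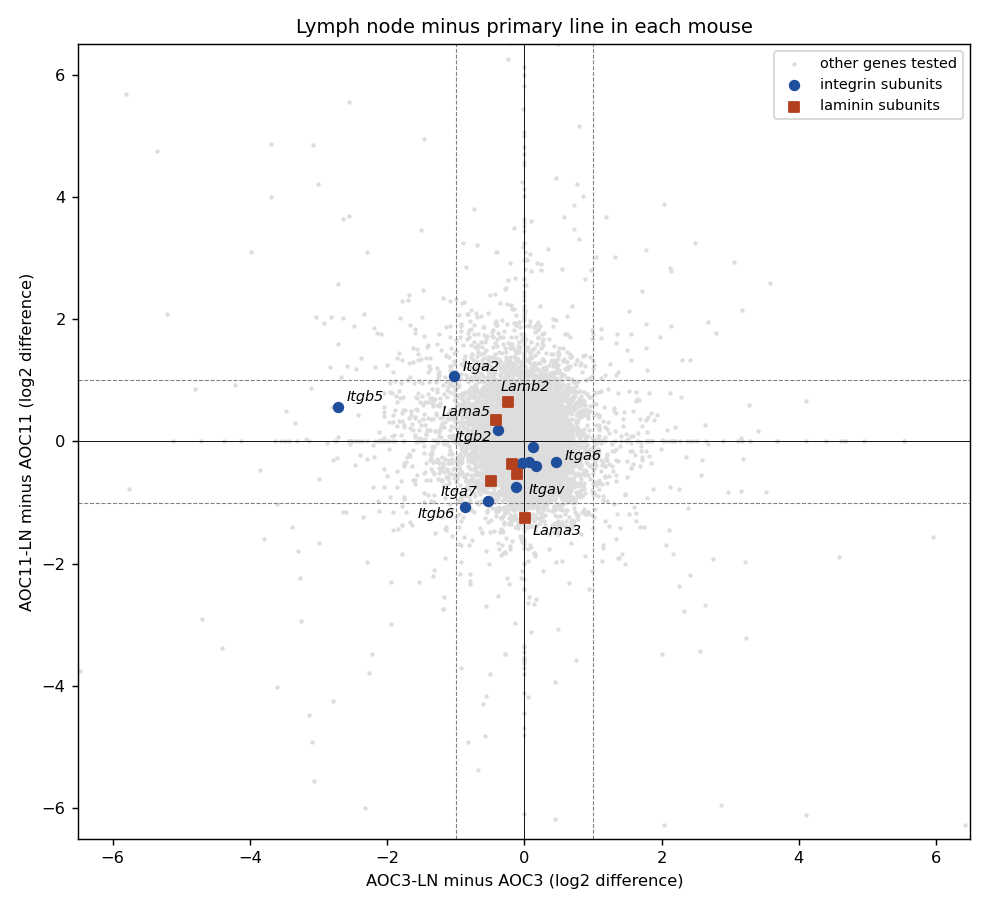
Log2 difference of lymph node minus primary line in the AOC3 mouse (horizontal axis) and the AOC11 mouse (vertical axis) for the 18 tested subunit genes and, in grey, all tested genes, with dashed lines at 1 and -1. Itgb5 lies far left at -2.72 and 0.57, Itgb6 is low in both, and 42 grey genes lie beyond the axis limit of 6.5.

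Read side by side, 8 of the 18 genes (44.4%) were lower in both lymph node lines than in the primary lines, against 22.3% of all genes, none was higher in both, against 23.9%, and 10 (55.6%) went in opposite directions, against 51.9%. The 8 were Itga5, Itga7, Itgav, Itgb6, Itgb7, Lamb1, Lamb3 and Lamc1. For Itgb7 the difference in the AOC3 mouse was -0.03 and turned to 0.02 when lines were scaled to the same median, and for Lamb1 it went from -0.11 to 0.00. Itgb6 was at -0.87 and -1.07, and Lamc1 at -0.48 and -0.64. A limma fit with mouse of origin as a term, which asks whether the shift is shared, called 2 genes in all (0.0141%) and none of the 18 after Benjamini-Hochberg adjustment, where the limma adjusted p of each of the 18 was 0.999. At an unadjusted limma p under 0.05 stood Itga7, Itgb6 and Lamc1, 3 of 18, against 2.86% of all genes.

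Partner genes of the integrins and laminins were read from lists of known function. Of 26 genes of integrin activation and the adhesion plaque, 23 passed the filter and their median difference between the mice was -0.03. Actn1 and Actn4, the crosslinkers that tie plaques to actin, were abundant throughout, and Actn4, the most abundant by its mean over the 4 lines, was at 262.7, 296.4, 323.4 and 306.5 FPKM. Tns4, a tensin that binds beta subunit tails, was at 159.1 and 199.1 FPKM in AOC3 and AOC3-LN and at 16.4 and 37.02 FPKM in AOC11 and AOC11-LN, a log2 difference of 2.84 (SE 0.41, limma adjusted p = 0.088). The parvins, which link integrin-linked kinase to actin, went in opposite directions. Parvb was at 4.78, 16.9, 0.289 and 0.768 FPKM, a difference of 2.81, while Parva was at 39.3, 34.6, 94.9 and 105.6 FPKM with a difference of -1.37 (limma adjusted p = 0.13 and 0.0772). Tns1 differed by -1.33 at levels from 0.184 to 3.73 FPKM. Parvb passed the filter through the AOC3 lines alone, and Tns1 through the AOC11 lines alone. Of the 23 genes, 2 were higher by more than 1 (background 5.1%) and 2 were lower (background 6.0%).

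All 10 genes of the hemidesmosome and other laminin receptors passed the filter, with a median of 0.01. None was higher by more than 1 (background 5.1%) and 1, Bcam, was lower (background 6.0%). Bcam, a receptor for the Lama5 chain, was at 15.7, 2.71, 14.8 and 19.9 FPKM, so that AOC3-LN was again the line that stood apart, as for Itgb5. Col17a1, a transmembrane collagen of the hemidesmosome, was at 0.346, 2.44, 0.0874 and 0.254 FPKM, while Dst and Plec, which tie Itgb4 to keratin filaments, were between 18.5 and 49.5 FPKM. Rpsa, which encodes a ribosomal protein that also serves as a laminin receptor, was the most abundant of the list.

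Among 17 basement membrane partners, 8 passed, with a median of 0.03. The AOC3 lines exceeded the AOC11 lines by 1.02 in Col4a1, a chain of collagen IV, and Col4a5 and the heparan sulfate proteoglycan Hspg2 were lower by more than 1, at -1.14 and -1.07, against the same background. Nid1, the linker between laminin and collagen IV, did not exceed 0.439 FPKM. Sparc was the most abundant. Of 23 other integrin ligands, 11 passed, with a median of -0.12. The Itga5 ligand Fn1 was at 267.9, 259.3, 160.3 and 92.8 FPKM, a difference of 1.13 toward the AOC3 lines, and Tnc differed by 1.42 in the same direction. Npnt, Icam1 and Postn were at -1.60, -1.48 and -1.45. Of the 11 ligands, 2 were thus higher by more than 1 (background 5.1%) and 3 were lower (background 6.0%). Postn, at 0.0593, 0.00696, 0.757 and 3.54 FPKM, passed the filter through AOC11-LN alone. Ccn1 was the most abundant ligand by its mean over the 4 lines, at 523.5, 306.6, 909.7 and 184.3 FPKM, the lymph node line being lower in each mouse. For the subunits described above as short of an alpha partner, the ligands Madcam1 and Icam2 did not exceed 0.0393 FPKM. Icam1, the ligand of Itgb2 integrins, was at 1.79, 0.377, 6.54 and 3.39 FPKM. Vcam1, a ligand of Itga4 integrins, was at 0.273, 0.104, 0.933 and 1.24 FPKM, and Cdh1, the ligand of the pair of Itgae and Itgb7, was at 144.0 to 182.6 FPKM.

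Itgav pairs act on latent TGF-beta, and 6 of 9 genes of that system passed, with a median of -0.22. Ltbp1, which stores latent TGF-beta in the matrix, was at 22.5, 18.04, 1.02 and 4.06 FPKM, a difference of 2.75 (SE 0.41, limma adjusted p = 0.0942). Of the 6 genes, only Ltbp1 was higher by more than 1 (background 5.1%), and none was lower (background 6.0%). Ltbp3 was the most abundant, and Ltbp4 differed by -0.83. Of the genes of these 5 lists, limma called none between the mice after Benjamini-Hochberg adjustment, and 7 of 23 plaque genes, 2 of 10 laminin receptor genes, 2 of 8 basement membrane genes, 6 of 11 ligands and 1 of 6 latent TGF-beta genes had an unadjusted limma p under 0.05, against 18.7% of all genes.

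**Figure D5:**
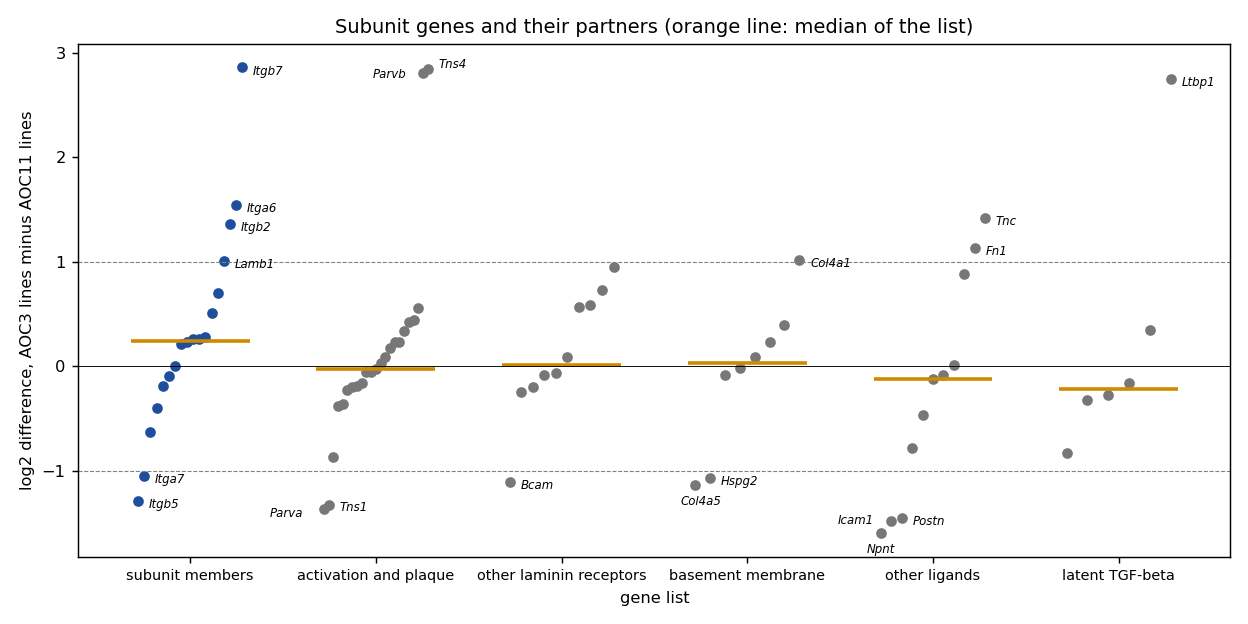
Log2 difference of AOC3 lines minus AOC11 lines for the 18 tested subunit genes (blue) and 5 lists of partner genes (grey), 1 point per gene, with an orange line at the median of each list and dashed lines at 1 and -1. List medians lie between -0.22 and 0.24, and Itgb7, Tns4, Parvb and Ltbp1 stand above 2.70. Parvb passed the filter through the AOC3 lines alone.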

How the data were processed

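RNA of 4 lines was sequenced as 1 library each. The authors trimmed reads with Trim Galore, mapped them to mm10 with TopHat2 and estimated abundance with Cufflinks on GENCODE M21 (versions not given in the sources used here). They deposited FPKM values without the log2 transformation and quantile normalization named in the methods. Depth was estimated from low FPKM values of 9528 genes with 1 transcript. Multiplied by length, 63.5% to 66.8% of these came within 0.1 of multiples of a shared step, against 20% by chance, so counts were not recovered and intervals are approximate.

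FPKM plus a pseudocount of 1 was log2-transformed and quantile-normalized, and genes reaching 1 FPKM somewhere were kept. Differences beyond 1 log2 unit were counted. limma 3.58.1 in R 4.3.3 (lmFit, eBayes with trend) was fitted to all genes with Benjamini-Hochberg adjustment. p-values measure only the spread between these libraries. Members and lists were chosen with earlier results of these data known. All members could be named, and of each list the 3 largest differences, the most abundant gene and partners of members. Alternatives changed the pseudocount, scaling, filter, gene types, threshold and lines included. Lamb4 and Acta1 were not analysed here, and 1 listed gene is not reported here.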

Additional observations from a re-analysis of the deposited data

Results flagged for a closer look

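Several genes differed in opposite directions between the lymph node and the primary line of the mice, some with a value near 0 in 1 mouse. Genes with the same sign in both mice are not listed here, such as Parvb at 1.72 in the AOC3 mouse and 0.24 in the AOC11 mouse. Each value is a log2 difference between single libraries, and the difference between the mice was not tested. Itga2 was at -1.03 in the AOC3 mouse and 1.07 in the AOC11 mouse, and Itgb5 at -2.72 and 0.57. Lama3 was at 0.01 in the AOC3 mouse and -1.26 in the AOC11 mouse.

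Among the partner genes, the integrin activator Fermt2 was at 0.16 in the AOC3 mouse and -1.45 in the AOC11 mouse, and Sharpin, an inhibitor of integrin activation, at -0.34 and 0.69. The laminin receptor Bcam was at -2.05 and 0.41. In the basement membrane list, Col4a2 was at 0.08 and -1.06, and Ntn4 at -0.56 and 0.53. The ligand Postn was at -0.06 and 1.10. In the latent TGF-beta list, Tgfb3 was at -0.27 and 1.46, Ltbp1 at -0.27 and 1.09, Ltbp2 at -3.11 and 0.88, and Ltbp3 at -0.15 and 1.16. Tgfb3, at 0.571, 0.241, 0.0461 and 2.23 FPKM, passed the filter through AOC11-LN alone. The FPKM of Ltbp2 was 19.7, 1.24, 4.82 and 9.99, so that AOC3-LN was the lowest line, as for Itgb5 and Bcam.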

How the results depend on the processing

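Of 393 alternative values for single subunit genes, 372 stayed on the same side of the threshold and either kept their direction or fell to 0. Itgb5 ranged from -2.67 to 0.06 between the mice when a line was left out and reversed without AOC3-LN. Between the mice, the subunit genes past the fold threshold numbered 6, 5 without quantile normalization or with a filter of 5 FPKM, and 4 to 6 when a line was left out, while all genes past it went from 1573 to 2627 with a pseudocount of 0.1 and 3814 at 1.5-fold, and ranged from 1461 to 1956 when a line was left out. With the same 2 changes, genes past it between AOC3-LN and AOC3 went from 783 to 1443 and 1948, and between AOC11-LN and AOC11 from 1149 to 2074 and 3482. Among protein-coding genes alone these were 473 and 689. At 1.5-fold, 7 instead of 3 subunit genes passed between AOC11-LN and AOC11, and 4 passed with a pseudocount of 0.1. The limma calls between the mice went from 29 to 50 with a filter of 5 FPKM, 256 among protein-coding genes, where Itga6 joined Itgb7 (limma adjusted p = 0.0391), 0 without a filter (4247 at an unadjusted p under 0.05) and 0 to 4 when a line was left out (1075 to 2910 unadjusted). With site as a replicate block, limma called 31 genes and no subunit gene (6 of 18 at an unadjusted p under 0.05, against 2262 of 14165 genes). The pairing by site follows the labels. The 2 genes limma called between the sites became 0 without a filter (1204 unadjusted) and 0 among protein-coding genes (325 unadjusted). The causes were not tested. The median difference of all genes stayed between -0.057 and 0.046 under every scaling, pseudocount, filter and set of lines. When a line was left out, the lone line was assumed to vary like the others. Values below 3 fragments were taken as not distinguishable from 0, a floor that was set and not tested.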
